A study of Mus musculus with 2 samples.

Results

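The subject is a set of 10 noncoding RNA genes, of 32285 genes counted, in nuclei of the mouse hippocampus. They are Gm32647, 4930467D21Rik, Gm10754, 4921539H07Rik, Gm2164, Gm42705, Gm6260, 9330185C12Rik, A330049N07Rik and Gm10790. They were chosen by their UMI counts in these same data, as RNAs seen among the leading genes of cell classes, so their levels by class are given as descriptions, with no test. The annotation holds 9830 noncoding and 21689 protein-coding genes of those counted. Single-nucleus RNA sequencing was run on hippocampus of 3-month-old Stra8-cKO mice (genotype Stra8L/-; Nestin-Cre) in 2 libraries, 1 labelled male and 1 labelled female, and both carry the same deletion. The Nestin-Cre transgene deletes in progenitors of the nervous system, hence in their neuronal and macroglial offspring, while microglia have another origin. No control genotype was analysed here, so nothing below bears on the deletion of Stra8. The sources used here do not say how many animals entered each library.

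The male library held 103262825 UMIs (molecular tags that count each captured RNA once) over 16174 barcodes, and the female library 108286856 over 20150. After filtering, 14030 male nuclei (median 4367 UMIs) and 17096 female nuclei (median 2675.5 UMIs) were analysed, of which 12549 and 11710 fell into a named class. The female library had a higher median mitochondrial share (1.5% against 0.632%) and more unnamed nuclei (5386 against 1481). The libraries shared 101 barcode sequences. Stra8 itself gave 3 UMIs in the male library and 6 in the female one. Which exons were deleted is not given, so a tag at the 3′ end may lie outside them and this count checks nothing. Classes were built from protein-coding genes alone, so none of the 10 RNAs helped to form them, and were named from coding markers; a name says only that nuclei resemble that type. Levels are CPM, a class's UMIs of 1 gene scaled to a common class total, summed over the nuclei of a class in 1 library. The ratio used below sets the CPM plus 5 in the leading class over that in the next class, among the 17 classes that held a name and 25 or more nuclei in that library. Levels are compared between classes for 1 gene, not between genes. All intervals are 95% intervals of counting error only: each group has 1 library, so a difference of sex cannot be told apart from one of animal, dissection or library.

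Long noncoding RNAs are transcribed, spliced and often polyadenylated like messenger RNAs but hold no long open reading frame. Many stay in the nucleus, where some act on chromatin or on neighbouring genes, and many are restricted to fewer tissues or cell types than coding genes are. In the hippocampus, excitatory neurons of the dentate gyrus, hilus and CA fields form a relay whose cell types share much of their coding programme. Hilar mossy neurons are excitatory cells of the dentate hilus that project back to granule neurons, CA1 pyramidal neurons are the output cells of the hippocampus proper, and the subiculum and entorhinal cortex lie next to it.

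By GENCODE vM21 on GRCm38 (mm10), 8 of the 10 genes are lincRNAs, Gm2164 is an antisense RNA and Gm10790 a processed transcript. All are annotated with more than 1 exon. Gm32647 is the longest of the 10, at 666.481 kb with 3 exons, which cover 0.937% of it. 4921539H07Rik has the highest exonic share, 8.55% of 50.564 kb. Whether counting used strand and intronic reads is not stated in any source used here. Reads of overlapping genes on opposite strands therefore cannot be told apart with certainty.

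Sequences are shown to place each RNA in the genome. RefSeq promoters (GRCm38.p6, 250 bases before to 50 after the start) were held for 5 of the 10 genes. For 4 of them the window is printed 5′ to 3′ on the gene's strand, with capitals where a script found GAGGAA (bound by factors of the PU.1 type), ACAAAG (SOX type), CAGATG (an E-box of the NeuroD type), TATAAA (the TATA box) or CAGCTG (an E-box), each on either strand. They are Gm10754 at chr10:97967041-97967340 (minus), Gm6260 at chr3:143712094-143712393 (minus), A330049N07Rik at chr10:73086656-73086955 (minus) and Gm10790 at chr13:41865665-41865964 (plus). The RefSeq start of Gm6260 lies 67 bases from that of GENCODE, and the other 3 starts are the same.
Gm10754: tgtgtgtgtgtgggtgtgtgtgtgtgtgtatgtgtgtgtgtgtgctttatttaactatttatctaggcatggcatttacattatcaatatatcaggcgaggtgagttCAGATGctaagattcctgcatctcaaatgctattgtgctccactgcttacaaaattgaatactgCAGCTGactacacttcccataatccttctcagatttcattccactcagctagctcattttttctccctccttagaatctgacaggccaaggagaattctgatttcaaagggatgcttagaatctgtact
Gm6260: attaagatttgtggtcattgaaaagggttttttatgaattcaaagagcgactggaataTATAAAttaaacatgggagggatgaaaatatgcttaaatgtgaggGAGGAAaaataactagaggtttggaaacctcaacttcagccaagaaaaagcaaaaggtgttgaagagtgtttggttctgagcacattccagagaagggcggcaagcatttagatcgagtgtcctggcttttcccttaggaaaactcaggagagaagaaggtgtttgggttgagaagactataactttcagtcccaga
A330049N07Rik: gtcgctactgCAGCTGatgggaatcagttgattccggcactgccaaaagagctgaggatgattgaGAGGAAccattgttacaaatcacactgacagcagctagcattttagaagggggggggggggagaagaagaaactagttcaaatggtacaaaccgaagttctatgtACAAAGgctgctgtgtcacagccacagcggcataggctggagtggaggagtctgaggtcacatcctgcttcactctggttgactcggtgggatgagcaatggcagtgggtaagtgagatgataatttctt
Gm10790: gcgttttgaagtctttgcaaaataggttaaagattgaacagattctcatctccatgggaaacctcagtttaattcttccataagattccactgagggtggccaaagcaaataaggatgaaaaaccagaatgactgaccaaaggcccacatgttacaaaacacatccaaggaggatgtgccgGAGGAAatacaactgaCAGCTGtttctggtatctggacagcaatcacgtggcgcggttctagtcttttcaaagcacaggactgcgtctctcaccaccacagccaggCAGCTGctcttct
Among 27025 RefSeq promoters of the same length, GAGGAA stood in 28.3%, ACAAAG in 18.7%, CAGATG in 17.2%, TATAAA in 14.2% and CAGCTG in 16.1%. Of the 4 windows printed, the one of Gm10790, the microglial RNA, and the one of A330049N07Rik, the oligodendrocyte RNA, held GAGGAA, and the latter also held ACAAAG. The window of the neuronal Gm6260 held GAGGAA as well, and TATAAA once. The window of Gm10754, the CA1 RNA, held CAGATG once and CAGCTG once. CAGCTG also stood once in the window of A330049N07Rik and 2 times in that of Gm10790. These are matches of letters, not binding sites. GC content of these 4 ranged from 39.3% (Gm6260) to 49.3% (A330049N07Rik), below the median of 52.7% over all promoters.

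The promoter of 4930467D21Rik is shown as the gap it shares with a coding gene. Naa11, a catalytic subunit of an N-terminal acetyltransferase, starts on the opposite strand, and 37 bases lie between the 2 starts. These bases, in capitals, and the first 50 bases of 4930467D21Rik, in lower case, lie at chr5:97392380-97392466 (plus), have a GC content of 59.8% and hold none of the motifs above. The whole RefSeq window of the gene, not printed, has a GC content of 61.3% and holds CAGATG once.
4930467D21Rik: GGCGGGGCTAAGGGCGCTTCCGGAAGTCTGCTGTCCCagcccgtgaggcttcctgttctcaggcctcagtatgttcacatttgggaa
A poly(A)-primed 3′ library is made to read the ends of transcripts. The other 5 genes are shown by the last 50 bases of their longest GENCODE transcript, with AATAAA and ATTAAA in capitals. They lie at chr7:94349351-94349400 (Gm32647, plus), chr3:58165024-58165073 (4921539H07Rik, plus), chr4:124528924-124528973 (Gm2164, minus), chr3:143826963-143827012 (Gm42705, plus) and chr1:113891385-113891434 (9330185C12Rik, minus).
Gm32647: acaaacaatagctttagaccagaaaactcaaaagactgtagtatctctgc
4921539H07Rik: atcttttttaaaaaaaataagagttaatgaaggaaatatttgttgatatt
Gm2164: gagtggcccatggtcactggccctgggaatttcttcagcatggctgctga
Gm42705: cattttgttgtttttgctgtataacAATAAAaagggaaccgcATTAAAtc
9330185C12Rik: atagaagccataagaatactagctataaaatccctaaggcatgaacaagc
Of these 5 ends, only that of Gm42705 holds either hexamer. Over the longest transcripts of all 10 genes, 5 do, beside 39.5% of annotated lincRNA transcripts and 50.2% of coding transcripts. Gm32647 and 4921539H07Rik each have another annotated transcript that ends further on, at chr7:94709171 and chr3:58167616. Those ends were not examined.

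Each RNA was placed in the class where its CPM was highest. The leading class was the same in both libraries for 9 of the 10, and the exception was 9330185C12Rik. Gm32647 and 4930467D21Rik were led by hilar mossy neurons, and Gm10754 and 4921539H07Rik by CA1 pyramidal neurons. Gm2164, Gm42705 and Gm6260 were led by excitatory neurons of subiculum or entorhinal type whose first leading gene was Fn1 (called Fn1 neurons below), A330049N07Rik by oligodendrocytes and Gm10790 by microglia or macrophages. A gene was said to mark a class when its leading class was the same in both libraries and its ratio over the next class was at least 4 in each. By this rule 4 of the 10 did so: Gm32647, Gm42705, A330049N07Rik and Gm10790. Which ones did depended on the processing. With all genes used for clustering Gm42705 fell out. At a clustering resolution of 0.5 no mossy class formed, and Gm32647 was led by CA3 neurons with ratios of 4.92 and 2.16. With stricter filters on nuclei Gm6260 came in, with fibroblasts no longer its next class, and Gm10790 could not be ranked in female microglia. In the main processing, the rule held for 1.8% of all 17218 genes with at least 50 UMIs in each library. It held for 1.8% of the coding and 1.83% of the noncoding ones. Since the 10 were chosen for leading classes, nothing is read from that difference. The other 6 are no class markers in this strict sense: their levels ran on into another class. The median ratio of the 10 was 2.73 in the male library and 2.83 in the female one.

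**Figure D1:**
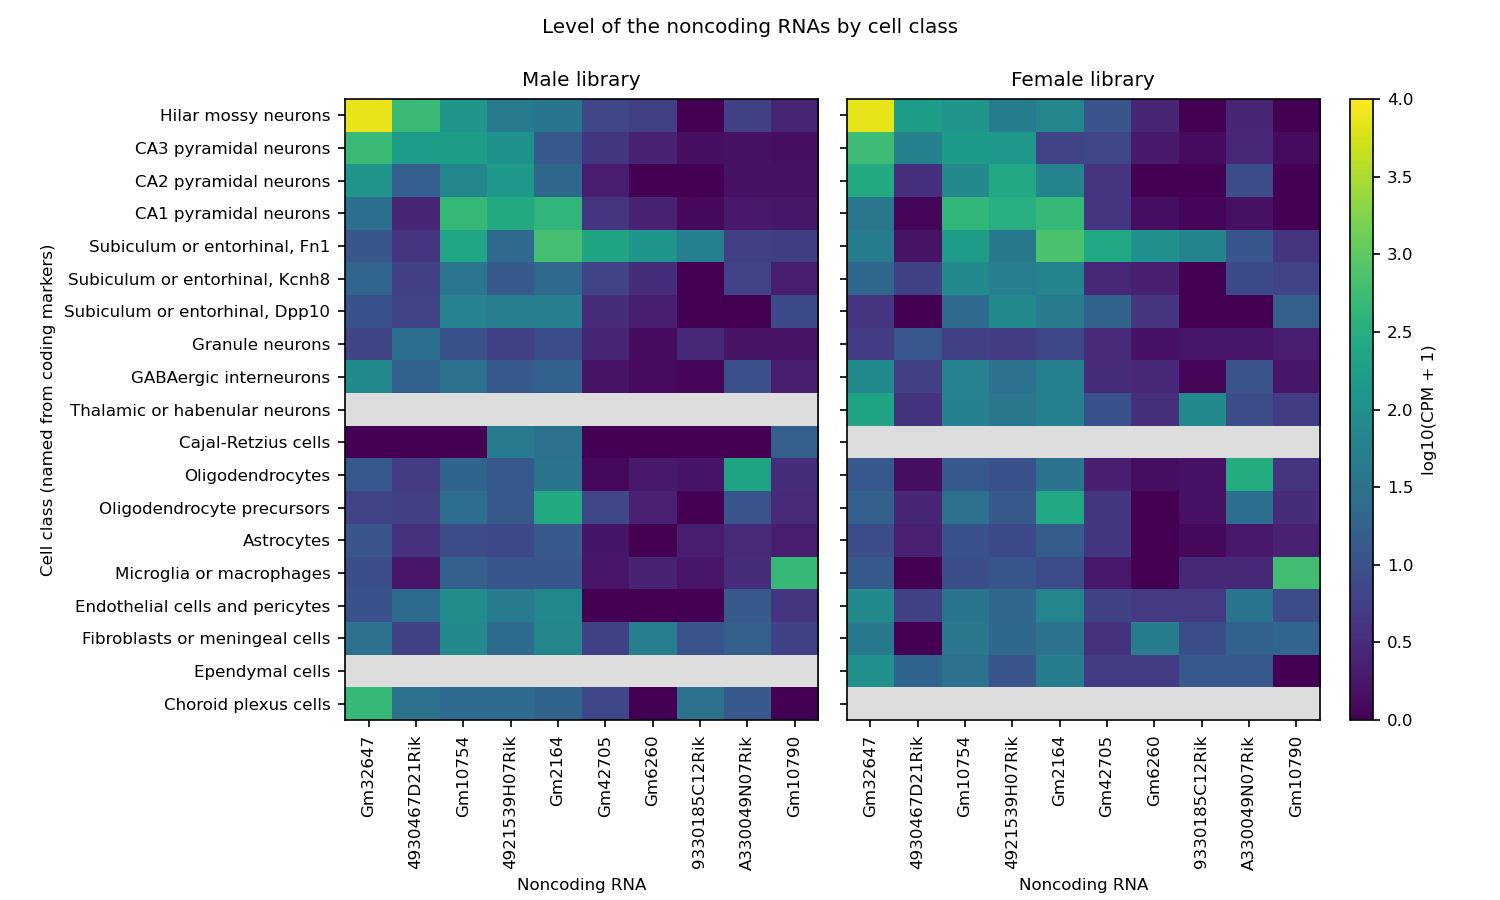
Level of each of the 10 noncoding RNAs (columns) in each cell class (rows) in the male and the female library, as log10 of CPM plus 1; grey marks classes under 25 nuclei. Gm32647 in hilar mossy neurons is the brightest cell of both panels, and A330049N07Rik and Gm10790 each stand out in 1 row.

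Gm32647 (ENSMUSG00000108532, chr7:94042691-94709171, plus strand) was the RNA of hilar mossy neurons. This class held 44 male and 39 female nuclei, with 5 of the 8 listed mossy markers above 20 CPM in each library. Gm32647 stood at 7264 CPM (interval 7057 to 7475, 4664 UMIs) in male mossy neurons and at 7053 CPM (6841 to 7271, 4167 UMIs) in female ones. CA3 pyramidal neurons, the pyramidal cells that receive the mossy fibres of granule neurons, came next at 499.5 and 548 CPM. The ratio was thus 14.4 and 12.8. The intervals of the 2 classes lie far apart in both libraries, and those of the 2 libraries overlap within the mossy class.

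Every mossy nucleus held the RNA: 44 of 44 male (interval 92% to 100%) and 39 of 39 female (91.0% to 100%) nuclei. The count per nucleus ran from 28 to 314 UMIs (median 85) in the male and from 9 to 253 (median 101) in the female library. Outside the class it was found in 10.1% and 12.1% of nuclei. In granule neurons, which were at a median of 5064 and 5738 UMIs against 12394 and 13880 in mossy neurons, the share was 2.80% and 2.55%, and in microglia, which are not neurons and serve here as the background, 1.39% and 1.83% at a median of 1544 and 1656 UMIs. With each nucleus thinned to 1000 UMIs, detection stayed at 100% of mossy nuclei in both libraries, against 3.35% and 4.93% of the others.

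The separation held nucleus by nucleus. Among mossy nuclei the 5th percentile was 3862 CPM in male and 3680 CPM in female nuclei. In CA3 neurons, where 84.6% and 86.6% of nuclei held the RNA, the 95th percentile was 1480 and 1744 CPM. The 5th percentile of the mossy nuclei therefore lay above the 95th of the CA3 nuclei in each library. Because mossy neurons are few, they carried only 39.8% and 24.6% of all Gm32647 UMIs (CA3 neurons 3770 and 3458 UMIs). Unnamed subclusters, which were not ranked, held it as well. One led by Prr5l, D7Ertd443e and Cdh19 lay above CA3 in both libraries, at 733.2 CPM (26 male nuclei) and 585.6 CPM (40 female nuclei). Its raised markers were those of oligodendrocytes, 7 in number. Its nuclei had a median of 15533 and 15353 UMIs, against 1650 and 1686 in the oligodendrocyte class. Whether they mix cell types was not tested. Another subcluster, led by Cdc14a, C1qtnf7 and Mamdc2, lay above CA3 in the female library (631.5 CPM, 46 nuclei) and below it in the male one (421.7 CPM, 162 nuclei). A subcluster of 367 female nuclei led by Glis3, Maml2 and Cdh9 carried 3394 UMIs, at 371.1 CPM. Prr5l and St18 were also among its leading genes, and its median was 20354 UMIs per female nucleus. Male choroid plexus cells were listed at 472 CPM, but this came from 78 UMIs in 1 of 27 nuclei. Within CA3, a female subcluster led by Bdnf, Nr4a2 and Nr4a3, genes known to be induced by neuronal activity, had 801.6 CPM (726.1 to 882.8, 39 nuclei), above the main CA3 subcluster led by Nectin3 (553.8 CPM, 533 to 575.2).

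**Figure D2:**
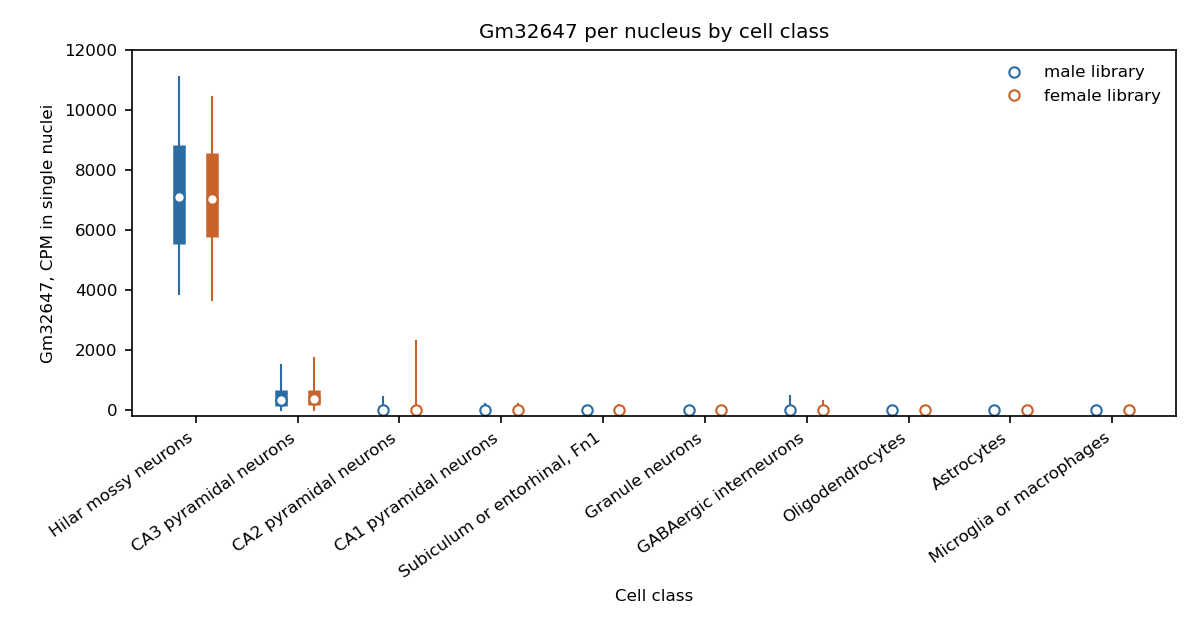
Gm32647 in single nuclei by class, in CPM of each nucleus; circles are medians, thick bars the middle 50% and thin lines the 5th to 95th percentiles, blue male and orange female. The mossy bars start at 3862 and 3680 CPM, above the upper end of the CA3 bars at 1480 and 1744 CPM.

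No protein-coding gene lay within 600 kb of Gm32647. It overlaps Gm44601, a lincRNA on the opposite strand, which was also led by mossy neurons, at 42.0 and 59.2 CPM with ratios of 5.32 and 6.81. These were the 2 noncoding genes that marked mossy neurons, beside 3 coding ones. Since the 2 genes overlap, their reads may not be fully separable.

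4930467D21Rik (ENSMUSG00000097516, chr5:97392417-97642179, plus strand) was led by the same class at a lower ratio. Mossy neurons had 498.4 CPM (445.2 to 556.1, 320 UMIs) in the male library and 169.3 CPM (137.7 to 205.9, 100 UMIs) in the female one. CA3 neurons had 156.9 and 56.6 CPM, which gives ratios of 3.11 and 2.83, and granule neurons 28.4 and 11.3 CPM. The order mossy, CA3, granule was the same in both libraries although the levels were not. Male choroid plexus cells (30.3 CPM, 5 UMIs) and female ependymal cells (18.4 CPM, 9 UMIs) lay above granule neurons. 4930467D21Rik was found in 86.4% (72.6% to 94.8%) of male and 61.5% (44.6% to 76.6%) of female mossy nuclei, against 7.97% and 2.66% of other nuclei. Thinned to 1000 UMIs, the shares were 38.6% and 17.9% against 1.92% and 0.472%. In CA3 neurons 60.4% and 29.4% of nuclei held it. The unnamed subcluster led by Prr5l, D7Ertd443e and Cdh19, with the oligodendrocyte markers given above, stood between mossy and CA3 neurons, at 216.8 and 65.1 CPM.

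Its divergent neighbour Naa11 had the same order of mossy, CA3 and granule neurons. In the female library neurons led by Kcnh8 (3.75 CPM, 6 UMIs), ependymal cells (2.04 CPM, 1 UMI) and CA2 neurons (1.96 CPM, 4 UMIs) lay above granule neurons. Naa11 stood at 79.4 CPM (51 UMIs) in male and 44.0 CPM (26 UMIs) in female mossy neurons, 42.8 and 15.5 CPM in CA3 neurons, and 6.62 and 1.78 CPM in granule neurons. It was also the coding gene whose profile over classes was most like that of 4930467D21Rik (Pearson r of log2(CPM + 5) = 0.951 over 32 points, each 1 class in 1 library). Points of 1 library share its depth and handling. Of 6 coding genes within 600 kb with at least 50 UMIs in each library, 2 were led by mossy neurons in both. They were Naa11 and Antxr2 (a receptor for anthrax toxin, 240.604 kb away, 74.8 and 93.1 CPM). Gk2, which overlaps 4930467D21Rik on the opposite strand, was led by mossy neurons too, but held only 16 and 13 UMIs in all. The share of all coding genes led by each class is not given here. Nothing is therefore read from this count of neighbours or from those given below.

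**Figure D3:**
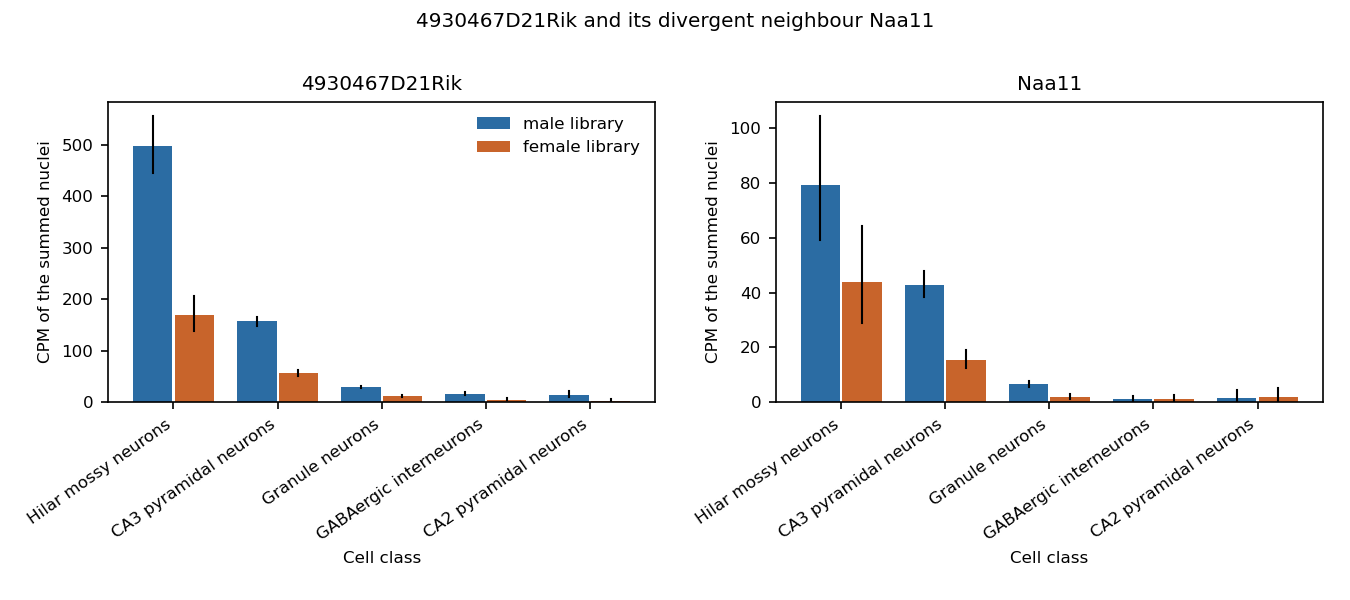
CPM of 4930467D21Rik (left) and Naa11 (right) in 5 neuronal classes, male in blue and female in orange, with 95% Poisson intervals as black lines. Both genes fall from mossy to CA3 to granule neurons, and both male bars exceed the female ones in those 3 classes.

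Gm10754 (ENSMUSG00000074776, chr10:97681414-97967090, minus strand) was led by CA1 pyramidal neurons, at 455.9 CPM (7380 UMIs, 1745 nuclei) in the male library and 450.0 CPM (7009 UMIs, 1583 nuclei) in the female one. Fn1 neurons came next, at 227.7 and 156.1 CPM, and CA3 neurons at 169.3 and 150.1 CPM. The ratio was 1.98 and 2.82, so Gm10754 is a graded RNA of pyramidal and subicular or entorhinal neurons, highest in CA1. It was found in 89.7% (88.2% to 91.1%) and 89.2% (87.6% to 90.7%) of CA1 nuclei, at a median of 3 UMIs in each library, and in 11.2% and 13.1% of other nuclei. Thinned, the shares were 35.2% and 32.9% against 2.53% and 4.52%. CA1 neurons held 66.7% of its male and 54.8% of its female UMIs.

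The highest female level lay outside the named classes. An unnamed subcluster of 49 female nuclei, led by Rarb, Rgs9, Pde7b, Foxp2, Penk and Drd2, genes known from neurons of the striatum, had 845.4 CPM (752.5 to 946.7), and 93.9% of its nuclei held Gm10754. It was left out of the ranking of classes because it carried no name. Between the CA1 subclusters led by Ndrg1 and by Ndst4, Gm10754 varied less than 4921539H07Rik, described next. It stood at 500.5 and 502.9 CPM in the one led by Plch1, at 521.0 and 528.8 CPM in the one led by Ndrg1 and Dcn, and at 368.3 and 358.6 CPM in the one led by Ndst4 and Stac.

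Of 4 coding genes within 600 kb of Gm10754 with at least 50 UMIs in each library, 2 were led by CA1 in both. They were Epyc, which encodes a small leucine-rich proteoglycan, and C030005K15Rik. The lincRNA 4930525C09Rik was led by CA1 too. Epyc and 4930525C09Rik overlap Gm10754 on the opposite strand and stood at 20.5 and 21.8 CPM and at 38.5 and 43.6 CPM in CA1. C030005K15Rik overlaps Gm10754 on the same strand and had 6.98 and 6.36 CPM there. Reads of these overlapping genes may not be fully separable. Dcn (decorin, another such proteoglycan, 163.271 kb away) was led by fibroblasts instead, at 160.6 and 127.4 CPM.

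4921539H07Rik (ENSMUSG00000104586, chr3:58117053-58167616, plus strand) was led by CA1 as well, at 281.6 CPM (4558 UMIs) in the male library and 321.5 CPM (312.6 to 330.5, 5007 UMIs) in the female one. CA2 neurons, a small field between CA1 and CA3, came next at 145.8 and 246.6 CPM, and CA3 neurons had 110.4 and 145.0 CPM. The ratio was only 1.90 and 1.30. In the female library detection was no higher in CA1 than in CA2: 63.6% of CA1, 68.3% of CA2 and 64.2% of CA3 nuclei held it, and in the male library 54.3%, 50.7% and 55.6%. It was found in 7.53% and 10.2% of all nuclei outside CA1. Nuclei were deeper in CA2 (median 12341.5 and 14587 UMIs) and CA3 (10681 and 10777) than in CA1 (8373 and 9031), which bears on detection. By the median over single nuclei CA1 was highest in both libraries, at 95.03 and 161.7 CPM, against 36.0 and 116.4 CPM in CA2 and 68.98 and 107.0 CPM in CA3.

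Within CA1, 4921539H07Rik was uneven. In the subcluster led by Ndrg1 and Dcn it stood at 68.0 CPM (60.8 to 75.8, 474 nuclei) in the male library and 159.9 CPM (144.6 to 176.4, 225 nuclei) in the female one. In the one led by Ndst4 and Stac it stood at 451.6 CPM (427.8 to 476.3, 293 nuclei) and 418.8 CPM (399.8 to 438.4, 387 nuclei). Of the subclusters given, the low one was that where Gm10754 was highest, so the 2 CA1-led RNAs differ in order between them, in both libraries. Gm2164, described below, followed 4921539H07Rik, with 330.0 and 316.2 CPM in the Ndrg1 and Dcn subcluster and 538.5 and 528.7 CPM in the Ndst4 and Stac subcluster. Across CA1 nuclei 4921539H07Rik was found in 54.7% of Gm10754-positive and 50.8% of Gm10754-negative male nuclei, and in 64.2% and 58.5% of female ones. The subclusters come from coding genes alone.

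**Figure D4:**
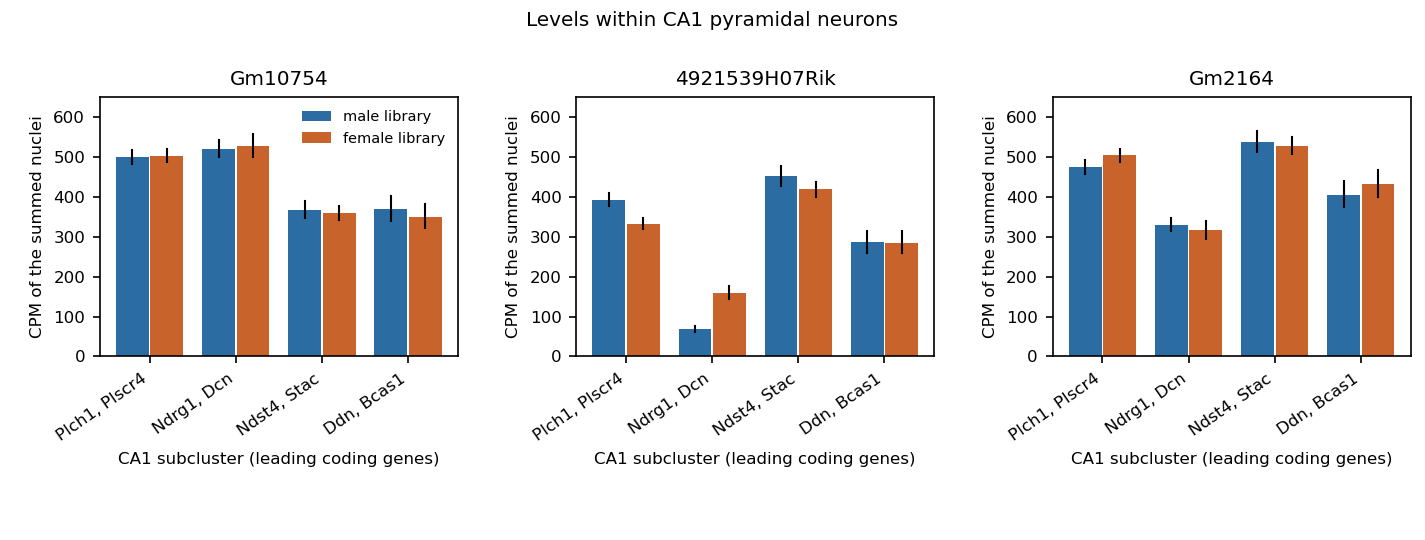
CPM of Gm10754, 4921539H07Rik and Gm2164 in the 4 CA1 subclusters with at least 25 nuclei in each library, named by 2 leading coding genes, male in blue and female in orange, with 95% Poisson intervals. 4921539H07Rik falls to 68.0 and 159.9 CPM in the Ndrg1 and Dcn subcluster, where Gm10754 is at 521.0 and 528.8 CPM.

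Of 11 coding genes within 600 kb of 4921539H07Rik, 0 were led by CA1 in both libraries. The lincRNA 1700007F19Rik, which overlaps it on the opposite strand, was led by CA1 at 128.6 and 165.6 CPM with ratios of 1.38 and 1.26, close to those of 4921539H07Rik itself in the female library. Reads of the 2 may not be fully separable.

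Fn1 neurons (263 male and 234 female nuclei) led 3 of the RNAs in both libraries and 9330185C12Rik in 1. The cluster was led by Fn1, Rxfp1, Brinp3 and Etv1. Of its 8 listed markers, 6 male and 5 female ones stood above 20 CPM. Gm42705 (ENSMUSG00000105324, chr3:143743377-143827012, plus strand) was the clearest of the 4. It stood at 214.4 CPM (198.9 to 230.8, 711 UMIs) in the male library and 244.3 CPM (227.7 to 261.8, 803 UMIs) in the female one. The next class had 6.23 CPM (4 UMIs in mossy neurons) and 18.1 CPM (6 UMIs in neurons of the same type led by Dpp10), which gives ratios of 19.5 and 10.8. With all genes used for clustering, a class of the same type led by Fras1 formed and came next at 148.7 and 116.4 CPM, so the ratio was 1.59 and 1.86 and Gm42705 marked no class. An unnamed subcluster of 92 male nuclei led by Rxfp1, Col23a1 and Npsr1 had 50.2 CPM. Of all its UMIs, 76.0% and 58.9% were in Fn1 neurons.

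Gm42705 was found in 71.1% and 68.8% of Fn1 neurons against 1.20% and 1.75% of other nuclei. Fn1 neurons were deep, at a median of 10889 and 12558 UMIs. Thinned to 1000 UMIs, the shares were 18.6% and 20.9% against 0.172% and 0.402%. In CA1 neurons, of a median of 8373 and 9031 UMIs, 2.29% and 2.40% of nuclei held it. The RNA therefore separated Fn1 neurons from CA1 neurons of like depth.

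Gm6260 (ENSMUSG00000105279, chr3:143670892-143712210, minus strand) is the neighbour of Gm42705. The 2 genes point away from each other, with 31167 bases between them. Gm6260 stood at 125.1 CPM (113.4 to 137.8, 415 UMIs) in male and 105.9 CPM (95 to 117.6, 348 UMIs) in female Fn1 neurons. Its second class was not neuronal: fibroblasts or meningeal cells had 50.2 and 48.8 CPM, from only 10 and 18 UMIs, which gives ratios of 2.36 and 2.06. With stricter filters on nuclei the ratio was 13.2 and 13.6. The next class was then mossy neurons at 4.83 CPM in the male and neurons led by Dpp10 at 3.19 CPM in the female library. The low ratio thus rests on those fibroblast UMIs. Whether fibroblasts still held 25 nuclei under the stricter filters, and so were ranked, is not given here. The higher ratios therefore do not show that fibroblasts lack the RNA. Every other named class with at least 25 nuclei was at or below 4.67 CPM. It was found in 56.7% and 57.3% of Fn1 neurons, in 20.6% and 16.9% of fibroblasts, and in 0.610% and 0.741% of all nuclei outside Fn1 neurons.

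Another lincRNA of the locus, Gm42707, lies 51.381 kb beyond Gm42705 and marked Fn1 neurons too, at 73.9 and 61.5 CPM with ratios of 9.46 and 5.05. Gm42705 and Gm42707 were the 2 noncoding genes that marked the class, and 0 coding genes did. The 1 coding gene with values within 600 kb of Gm42705, Lmo4 (a LIM-domain cofactor of transcription), stood at 88.7 and 42.3 CPM in Fn1 neurons and was led by other classes. Gm6260 was found in 69.5% of the male Fn1 neurons that held Gm42705 and in 25% of those that did not, and in 66.5% and 37.0% in the female library. Nuclei differ in depth, which bears on the detection of both genes, and its part in these shares was not tested.

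Gm2164 (ENSMUSG00000098760, chr4:124528924-124657169, minus strand) was shared between Fn1 and CA1 neurons. It stood at 642.9 CPM (615.9 to 670.8, 2132 UMIs) and 720.1 CPM (691.4 to 749.7, 2367 UMIs) in Fn1 neurons and at 433.0 and 472.1 CPM in CA1 neurons, so the ratio was 1.48 and 1.52. Oligodendrocyte precursors, a glial class, came after CA1 at 267.7 and 245.7 CPM, and 50.0% and 48.0% of their nuclei held it. CA2 and CA3 neurons, which lie next to CA1, had 20.7 and 12.6 CPM in the male and 60.3 and 5.55 CPM in the female library. The RNA thus was high in CA1, low in CA3 and high again in a glial precursor, in both libraries. It was found in 98.9% and 94.9% of Fn1 neurons against 19.7% and 19.1% of other nuclei, and thinned in 42.6% and 52.1% against 7.42% and 7.96%.

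Gm2164 starts 362 bases from the start of Pou3f1 and overlaps it on the opposite strand. Pou3f1 is a POU-domain transcription factor known from CA1 neurons and from glia. It stood at 40.7 and 25.9 CPM in Fn1 neurons and was led by oligodendrocyte precursors in the male library (81.5 CPM) and oligodendrocytes in the female one (60.2 CPM), each with a ratio under 1.07. The lead of Pou3f1 over its next class was therefore smaller than that of Gm2164. Its spread over the other classes is not given here. Of 15 coding genes within 600 kb with at least 50 UMIs in each library, 1 was led by Fn1 neurons in both. This was the ephrin receptor gene Epha10, at 143.2 and 152.4 CPM with ratios of 1.28 and 1.18.

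9330185C12Rik (ENSMUSG00000097648, chr1:113891385-113964134, minus strand) had no single class. In the male library Fn1 neurons led at 52.5 CPM (45.0 to 60.9, 174 UMIs), with choroid plexus cells next at 30.3 CPM from 5 UMIs. In the female library thalamic or habenular neurons led at 81.5 CPM (70.5 to 93.7, 197 UMIs), with Fn1 neurons next at 63.6 CPM (209 UMIs). The male library held 1 nucleus of thalamic or habenular type and the female 196, so that class could not be ranked in the male library. Within the female class, 196 of the 197 UMIs lay in the subcluster led by Synpo2, Lef1 and Adamts19 (91.3 CPM, 154 nuclei, 37.7% of them positive), and 1 UMI in the 42 nuclei of the other, led by Syt9 and Ano1.

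The detection of 9330185C12Rik was sparse in Fn1 neurons: 36 of 263 male nuclei (13.7%, 9.77% to 18.4%) held it, at a mean of 4.83 UMIs and up to 21 UMIs per positive nucleus, and 21.8% of female nuclei. It was thus carried by a minority of nuclei with several UMIs each. No coding gene lay within 600 kb of it.

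A330049N07Rik (ENSMUSG00000111994, chr10:72973303-73086705, minus strand) was the RNA of oligodendrocytes, the myelin-forming glia. It stood at 214.3 CPM (200.6 to 228.6, 919 UMIs) in the male library and 298.3 CPM (285.7 to 311.4, 2097 UMIs) in the female one. The next class had 15.1 CPM (3 UMIs in fibroblasts) and 35.2 CPM (28 UMIs in endothelial cells and pericytes), so the ratio was 10.9 and 7.55. Oligodendrocyte precursors, their progenitors, had 10.0 and 28.3 CPM. An unnamed cluster led by Slco1c1, Fam20a and Gli3 (58 male and 143 female nuclei) stood at 84.1 and 130.1 CPM. Before removal, 36.4% of its nuclei were called doublets, under the cut of 40%. Astrocytes, whose cluster had these leading genes as well, stood at 2.00 and 0.907 CPM. The part of doublets in the unnamed cluster's level was not tested. Of all UMIs of A330049N07Rik 82.4% and 77.4% lay in oligodendrocytes. The class was made of a cluster that was mostly female, led by Prr5l, Slc13a1 and Mog (86 male and 3297 female nuclei), and one that was mostly male, led by Aspa, Prr5l and Sec14l5 (2277 and 478).

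Oligodendrocyte nuclei were shallow (median 1650 and 1686 UMIs), and A330049N07Rik was found in 28.1% (26.3% to 30.0%) and 34.6% (33.1% to 36.2%) of them, against 1.32% and 3.16% of all others. Thinned to 1000 UMIs the shares were 18.1% and 23.3% against 0.325% and 0.935%. Its start faces that of Pcdh15, a protocadherin of the hair-cell tip link, 12637 bases away on the opposite strand. Pcdh15 was led by oligodendrocyte precursors, at 2848 and 3162 CPM with ratios of 3.77 and 4.17, and stood at 266.7 and 261.8 CPM in oligodendrocytes. The 2 head-to-head genes thus led at different stages of 1 lineage, the coding gene in precursors and the noncoding RNA in oligodendrocytes.

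Gm10790 (ENSMUSG00000113856, chr13:41865915-41913092, plus strand) was the RNA of microglia or macrophages, the resident immune cells. It stood at 473.3 CPM (437 to 511.8, 628 UMIs) in the male library and 602.3 CPM (557.8 to 649.5, 677 UMIs) in the female one. The next class had 15.2 CPM (1 UMI in Cajal-Retzius cells) and 19 CPM (7 UMIs in fibroblasts), which gives ratios of 23.6 and 25.3. CA1 neurons held 13 UMIs in 1745 male nuclei and 0 UMIs in 1583 female nuclei. Of all its UMIs 85.7% and 77.5% were in microglia.

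It was found in 50.6% (47.0% to 54.1%) of 793 male and 57.4% (53.5% to 61.2%) of 655 female microglial nuclei, of a median of 1544 and 1656 UMIs, against 0.703% and 0.961% of other nuclei. Thinned, the shares were 37.0% and 41.5% against 0.170% and 0.412%. Of 4 coding genes within 600 kb with at least 50 UMIs in each library, 1 was led by microglia in both. This was Tmem170b, at 91.9 and 112.1 CPM with ratios of 1.40 and 1.76. Adtrp, 18.231 kb away, was led by microglia in both libraries too, but held only 16 and 15 UMIs in all. The most similar coding genes were Inpp5d (r = 0.963 over 32 points), a lipid phosphatase of blood cells, Rhoh (0.960), a small GTPase of blood cells, and Tnfrsf13b (0.959), a receptor of the TNF family.

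Each RNA was set beside a coding marker of its class that was picked in the other library, so that pick and value came from different libraries. The coding genes built and named the classes and the noncoding RNAs did not. In mossy neurons the best listed marker was Csf2rb2, a cytokine receptor chain, with ratios of 4.97 in the male library and 14.8 in the female one, beside 14.4 and 12.8 for Gm32647. Csf2rb2 had the lower detection inside the class, 77.3% and 92.3%, and also the lower outside, 0.250% and 0.211% against 10.1% and 12.1% for Gm32647. So Gm32647 was found in every mossy nucleus, and Csf2rb2 was rarer elsewhere.

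In CA1 neurons the best listed marker in the female library was Man1a, a mannosidase of the Golgi, with a ratio of 1.24 beside 2.82 for Gm10754 and 1.30 for 4921539H07Rik. Over all coding genes the picks were Tbc1d1 (1.77, male) and Matn2 (1.67, female), beside 1.98 and 2.82 for Gm10754 and 1.90 and 1.30 for 4921539H07Rik. With these classes, no coding gene of 14217 in the male or 14658 in the female library had a CA1 ratio as high as that of Gm10754. In CA1, 0 coding and 0 noncoding genes reached a ratio of 4 in both libraries. With all genes used for clustering, the ratio of Gm10754 was 1.54 and 1.32. The class led by Fras1 then came next, at 299.0 and 341.8 CPM. The rank of Gm10754 among coding genes is not given for those classes. In Fn1 neurons the best listed marker was Etv1, an ETS transcription factor (2.75 and 3.88), and no coding gene reached the ratio of Gm42705 in either library. The other Fn1-led RNAs did not exceed Etv1.

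In oligodendrocytes Mog, a myelin glycoprotein, had ratios of 13.2 and 7.24 beside 10.9 and 7.55 for A330049N07Rik, but it was found in more nuclei, 50.8% and 62.0%. In microglia Ikzf1, a transcription factor of blood lineages, had 67.9 and 89.4 beside 23.6 and 25.3 for Gm10790, and detection of 64.2% and 71.1%. There, 14 male and 9 female coding genes had a ratio at or above that of Gm10790. Gm42705 had a higher ratio than the best listed coding marker of its class in both libraries. For both glial RNAs and for Gm32647, 4930467D21Rik, Gm2164, Gm6260 and 9330185C12Rik it was lower in at least 1 library.

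**Figure D5:**
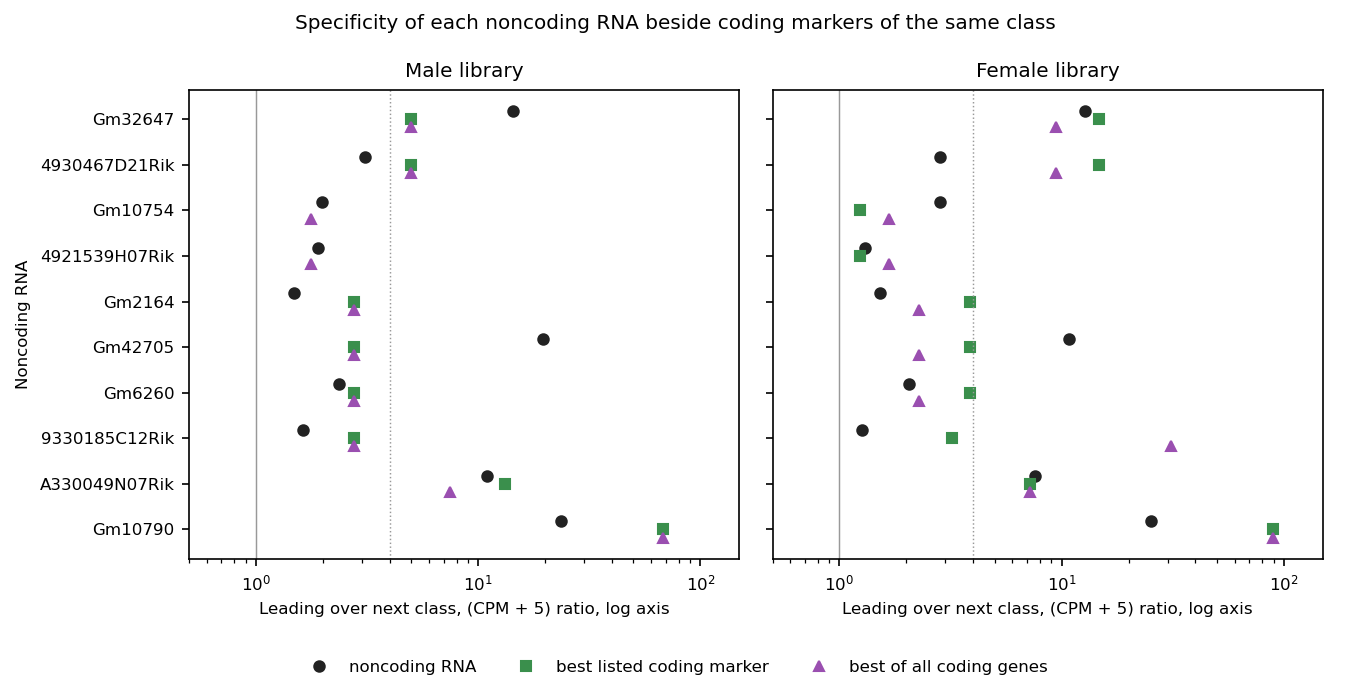
Ratio of the leading over the next class, (CPM + 5) on a log axis, for each noncoding RNA (black circles), the best listed coding marker of its class (green squares) and the best of all coding genes (purple triangles), in the male and the female library; the dotted line is a ratio of 4, and no listed marker is drawn for the CA1-led RNAs in the male panel. Gm42705 lies far right of its coding markers in both panels, and Gm10790 left of Ikzf1. For 9330185C12Rik in the female panel both markers were picked in the female library itself.

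The number of genes that marked a class differed widely between classes. Microglia had 152 coding and 23 noncoding ones, oligodendrocytes 35 and 17, mossy neurons 3 and 2, Fn1 neurons 0 and 2, and CA1, CA3 and granule neurons 0 and 0. Among the noncoding markers of microglia, Gm2629 (ratios 32.6 and 55.5) and Gm2245 (33.8 and 24.4) stood beside Gm10790. Among those of oligodendrocytes, 4930420G21Rik had 11.7 and 7.83, A230001M10Rik 18.2 and 6.62, and A330049N07Rik 10.9 and 7.55.

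A list of 15 well-known noncoding RNAs was ranked in the same way. Of these, 1 reached a ratio of 4 in each library, Dlx6os1, an RNA of the Dlx locus of GABAergic neurons (365.4 and 309.7 CPM in GABAergic interneurons, ratios 14.6 and 14.1). Among all noncoding genes with at least 50 UMIs in each library, 1.83% marked a class by the rule above. The median ratio of the list was 1.12 and 1.14. The RNAs described above were picked among leading genes of classes in these data, whereas the list was made of well-known RNAs. A higher median ratio of the picked RNAs follows from that choice, so no contrast is read from it. Malat1, an abundant nuclear RNA, had ratios of 1.01 and 1.08, Meg3, an imprinted RNA of neurons, 1.19 and 1.17, and Neat1, the scaffold of paraspeckles, 2.73 and 1.46, led by oligodendrocytes. Most of the well-known RNAs were thus spread over classes, in the sense that the next class stood close to the first.

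Between the libraries, 1 of the 10 differed by at least 2-fold in its leading class, 4930467D21Rik in mossy neurons, where the log2 ratio of male to female (CPM + 5) was 1.53 (interval without the added 5, 1.23 to 1.90). In that class 7.39% of 7418 genes were at least 2-fold apart, and 5.92% were at least 2-fold higher in the male library, so its class held many such genes. In CA3 neurons, with 1184 male and 357 female UMIs, the log2 ratio was 1.39 (1.30 to 1.65). In granule neurons it was 1.03, in GABAergic interneurons 1.14 and in CA2 neurons 1.39, while in neurons led by Kcnh8, with 8 UMIs in each library, it was -0.05. Naa11 stood at 0.78 in mossy, 1.22 in CA3 and 0.78 in granule neurons. In neurons led by Kcnh8, with 5 male and 6 female UMIs, Naa11 was at -0.14. The male library was thus higher for both divergent genes in mossy, CA3 and granule neurons.

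The other 9 differed less. Gm32647 (0.04, -0.02 to 0.10) and Gm10754 (0.02, -0.03 to 0.07) had intervals that include 0. A330049N07Rik (-0.47, -0.59 to -0.36) and Gm10790 (-0.34, -0.51 to -0.19) were higher in the female library, where the libraries also differed in mitochondrial share and unnamed nuclei, and the part of these was not tested. The shares of genes at least 2-fold apart were 0.523% in CA1 neurons, 1.54% in Fn1 neurons, 1.29% in oligodendrocytes and 4.15% in microglia. 4921539H07Rik (-0.19) was slightly higher in the female library. Gm2164 (-0.16) and Gm42705 (-0.18) were slightly higher in the female library too, but with all genes used for clustering they stood at 0.18 and 0.12. Gm6260 (0.23, 0.03 to 0.45) was slightly higher in the male library, but stood at -0.62 after thinning and -0.21 at a clustering resolution of 0.5. 9330185C12Rik in Fn1 neurons was at -0.25 (-0.58 to 0.02), and at 0.83 with all genes used for clustering. Gm10790 turned to 0.58 with stricter filters on nuclei, under which fewer than 25 female microglia were left. No direction is therefore read for these 5 RNAs.

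The coding genes most like each RNA over the classes were found by correlation, as a description over 32 points of 1 class in 1 library each. For A330049N07Rik they were Slc13a1, a sulfate transporter (r = 0.971), Fbxw15 (0.967) and Prr5l (0.955). For Gm42705 they were Skint1 (0.898), Teddm3 (0.894) and Rab38 (0.800), and Teddm3 also came first for Gm6260 (0.745). Skint1 came first for 9330185C12Rik (0.830). For Gm32647 they were 3 olfactory receptor genes of low level, Olfr33 (0.906), Olfr553 (0.882) and Olfr78 (0.865). For Gm10754 they were Tmem200a (0.881), Brd9 (0.853) and Cntnap2 (0.848), and for 4921539H07Rik Brd9 (0.860), Khdrbs3 (0.836) and Map4k3 (0.835). For Gm2164 Stac (0.828), Ndst3 (0.811) and Cpne8 (0.810) were nearest. The first r ranged from 0.745 to 0.971 over the 10 RNAs.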

How the data were processed

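Nuclear RNA was counted in 2 droplet libraries (3′ v3.1 chemistry, 10000 nuclei targeted each). The authors deposited raw counts of UMIs, by gene and barcode, from Cell Ranger 7.0.1 as recorded per the file headers; bcl2fastq 2.20.0.422 and mm10 are named per the submitters' processing notes. Nuclei of 500 genes or more and up to 5% mitochondrial UMIs were kept (16034 male, 19251 female). Scrublet's automatic threshold called 9.57% and 0%, so the top 8% of scores per library were removed (1241 and 1445), then 5 of 30 clusters with over 40% called nuclei. Coding genes without Stra8, sex-linked check genes and mitochondrial genes (3000 variable genes, 40 components, 15 neighbours, Leiden resolution 1; scanpy 1.11.5, leidenalg 0.10.2) were clustered, then deep neurons once more. Clusters were named from 8 markers per class, at least 3 of them 2-fold up at 20 CPM; a neuronal subcluster short of that kept the name of the cluster that gave at least 70% of it. CPM, exact Poisson and Clopper-Pearson intervals (95%) and ratios with 5 CPM added were computed from the counts. No test was run, each group being 1 library; the script that calls markers was tested on simulated data. Positions come from GENCODE vM21, matched by identifier for 32235 genes, sequences from RefSeq GRCm38.p6 and GENCODE. Named genes are the 10 RNAs, the best listed and overall coding marker of their class, nearest or overlapping coding genes, the 3 most similar coding genes (classes with at least 50 nuclei over both libraries) and 15 known noncoding RNAs. Others, such as Gm42707, Gm44601, 1700007F19Rik, 4930525C09Rik, Antxr2, Epha10, Tmem170b, Gm2629 and Gm2245, were named after their values were seen. The members and lists were chosen with earlier results of these data known. Alternatives were clustering on all genes, resolution 0.5, no doublet removal, stricter filters, thinning, and other pseudocounts, folds and UMI minimums. The listed CA1 marker for the male library is not reported here.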

Additional observations from a re-analysis of the deposited data

Results flagged for a closer look

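Gm10790 also gave signal in nuclei that entered none of the comparisons. A cluster led by Mrc1, a marker of border-associated macrophages, was set aside because 53.2% of its nuclei were called doublets. In it Gm10790 stood at 142 CPM in the male library (128 UMIs, 169 nuclei, interval 118.8 to 169.3) and 199 CPM in the female library (184 UMIs, 186 nuclei, 171 to 229.5), above the limit that a count of 0 allows there (3.34 and 3.24 CPM). Another cluster set aside, led by Inpp5d and Dock8 (54.9% called doublets), had Gm10790 at 107.4 CPM (59 UMIs, 50 male nuclei) and 85.6 CPM (102 UMIs, 83 female nuclei). The Mrc1 cluster also held A330049N07Rik, the oligodendrocyte RNA, at 40.0 and 78.8 CPM. Which cells carried Gm10790 in these mixed clusters was not tested. All these levels of Gm10790 lie below the 473.3 and 602.3 CPM of the microglial class.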

How the results depend on the processing

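No paired analysis was possible because each group has 1 library and no result comes from a test. The median detection of the RNAs in their leading class was 62.6%. It was 66.3% with clustering on all genes, 60.8% without doublet removal and 65.8% with stricter nuclei (at least 1000 genes, at most 1% mitochondrial UMIs). With nuclei thinned to 1000 UMIs, which samples fewer molecules, it was 23.4%. At resolution 0.5 it was 57.1%, but no mossy class formed there. That median leaves out Gm32647 and 4930467D21Rik, so it is not set against the 62.6%, which includes them. The number of RNAs at least 2-fold apart between libraries, 1 (4930467D21Rik in mossy neurons), became 0 at resolution 0.5, where no mossy class formed and it stood at 157 and 57.2 CPM in CA3, still over 2-fold apart, and 0 after thinning (477.3 and 256.4 CPM in mossy neurons). A fold of 8 left 103 genes that mark a class, 88 coding and 15 noncoding, of 310, 254 and 56. The RNAs led in both libraries by the class given in the report numbered 9, but 7 at resolution 0.5, where CA3 neurons led Gm32647 (506 and 553 CPM) and 4930467D21Rik, and 8 under the stricter filter, where female microglia fell under 25 nuclei. The small differences between libraries of Gm2164, Gm42705, Gm6260, 9330185C12Rik and Gm10790 turned direction under at least 1 alternative, as given in the report, and those of Gm32647 (0.04) and Gm10754 (0.02) lie near 0, the former at -0.22 after thinning. The cause was not tested. An alternative chosen after seeing the data, similarity over the classes that reach 50 nuclei in each library on its own (24 points), gave the same first coding gene for 4 of the 10 RNAs and a median first r of 0.941 against 0.890. Mossy neurons, at 44 and 39 nuclei, limit the precision of their shares, and classes under 35 nuclei rest on few UMIs.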
